A study of Homo sapiens with 3 samples.

Results

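The transcripts of the DDX and DHX RNA helicases were examined for RBM17 binding in K562 cells. A gene was taken as a member when GENCODE v44 lists it as protein-coding under a symbol of DDX or DHX followed by a number and when replicate 2 held a cluster named with its Ensembl identifier. Of 54 such annotated genes, 45 were members, among 9079 protein-coding genes with a replicate 2 cluster. The members were 31 DDX and 14 DHX genes. The other 9 genes had no replicate 2 cluster under their current identifier, and the germ cell helicases DDX4, DDX25, DDX43 and DDX53 were among them. A helicase of ribosome biogenesis and antiviral genes were absent too. Of the replicate 2 identifiers, 449 were not found in GENCODE v44, so that a gene under an older identifier could be among the 9. Clusters of replicate 1 and reproducible peaks were added where they lay, on the same strand, within the span between the first and the last replicate 2 cluster of the gene.

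RBM17 was immunoprecipitated by enhanced crosslinking immunoprecipitation (eCLIP), in which RNA is crosslinked to protein by ultraviolet light, fragmented, precipitated with an antibody and sequenced. The cells were K562, a chronic myelogenous leukemia cell line, with no further treatment or genetic change named in the labels. A mixture of RBM17 antibodies was used for the 2 eCLIP replicates, and 1 size-matched input, taken from the same lysate before washing and recorded with no antibody, served for comparison. The deposited lists held 137095 clusters for replicate 1, 119066 clusters for replicate 2 and 866 reproducible peaks. Replicate 1 clusters carried a log2 fold over the input, and replicate 2 clusters carried a number of reads (3 to 8215, with a median of 5). Peaks carried 1 log2 fold, taken here as that of both replicates together, since the list has no header. The study calls the replicates biological, and the sources used here do not say whether separate cultures were grown for them. All 9 of the K562 genes checked, GATA1 and HBG2 among them, had replicate 2 clusters, against 1 of 6 genes of other cell types, EPCAM, with 11 reads in 3 clusters.

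RNA helicases of the DDX and DHX families are enzymes that use ATP to unwind RNA or to remove proteins from it. DDX proteins open short duplexes locally, whereas DHX proteins move along the strand, and DHX enzymes drive several of the rearrangements of the spliceosome. RBM17, also called SPF45, is a splicing factor of the U2 small nuclear ribonucleoprotein neighbourhood that binds proteins at the 3′ splice site. The helicase transcripts are considered here as RNA bound in the precipitate, and a fold over the input is a relative enrichment of reads and not a transcript level. Transcript abundance was not measured in these files, and a difference in replicate 2 reads between genes cannot be told apart from a difference in abundance.

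Reproducible peaks lay in 7 of the 45 helicase genes, namely DDX39A, DHX30, DHX9, DDX3X, DDX5, DDX46 and DHX38. This was 15.6% of the members (exact Clopper-Pearson 95% interval 6.49% to 29.5%, which like all intervals here covers counting error only), and the share among all protein-coding genes with a replicate 2 cluster was 4.52%. All 7 genes had at least 100 reads in replicate 2. Among genes with at least 100 reads, peaks lay in 7 of 19 members, or 36.8% (interval 16.3% to 61.6%), beside 17.1% of all such genes. The interval for the members thus held the background share once genes of few reads were left out. Together the 7 genes carried 12 peaks, with DDX39A and DHX30 at 3 each and DHX9 at 2. More than 1 peak was seen in 3 of the 7 genes, and 44.4% of all genes with a peak had more than 1.

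The log2 fold of the 12 peaks, for both replicates together, ran from 3.15 in DHX30 to 5.49 in DDX39A, with a median of 3.61 beside 3.80 for all 866 peaks. A log2 fold of at least 4 was reached by 5 of the 12 peaks, near the 40.9% of all peaks. Their −log10 p ran from 3.78 to 8.91, and their lengths from 6 to 103 bases. Replicate 2 reads in the overlapping clusters were few, with 14 at the lowest, 20.5 at the median and 30 at the highest. In 9 of the 12 peaks, the log2 fold of the overlapping replicate 1 cluster was above the value for both replicates. This was not counted over all 866 peaks, so that it cannot be called particular to the helicases. The difference of replicate 1 minus both ranged from −0.24 to 1.21, and the peak of DDX39A nearest the 3′ end had the largest.

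A replicate 1 cluster was called passing when its log2 fold over the input was at least 3 and its −log10 p at least 3, the levels that the reproducible peaks also reach. In the helicase genes, 97 of 779 replicate 1 clusters passed, or 12.5% (interval 10.2% to 15.0%), and in all protein-coding genes 5.77% did. The interval treats clusters as independent, but they are nested in genes and some abut, so that it understates the spread between genes. The clusters just inside the fold threshold lay at 3.06, in DDX39A and DHX30, and those just outside, in DDX3X and DDX5, at 2.997. The median log2 fold was 1.77 over the members' clusters and 1.51 over those of all protein-coding genes. Folds below 0, meaning relatively less signal than in the input, were found in 56 of the 779 clusters, or 7.19%, beside 10.9% of all. A passing cluster was present in 17 of the 45 members (37.8%), beside 18.5% of all genes. With at least 100 reads, 14 of 19 members (73.7%) and 47.6% of all genes had one.

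The passing clusters were concentrated in a few helicase genes. DDX3X had 32, DDX39A 20, DDX5 12 and DHX9 11, so that these 4 genes held 75 of the 97 (77.3%). In the other members, 22 of 601 clusters passed, or 3.66%, a share that is lower by construction, since the 4 genes were set apart by their number of passing clusters. The 28 members without a passing cluster included 5 with at least 100 reads, DDX1, DDX21, DDX39B, DDX55 and DDX56, which are named because of their values.

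**Figure D1:**
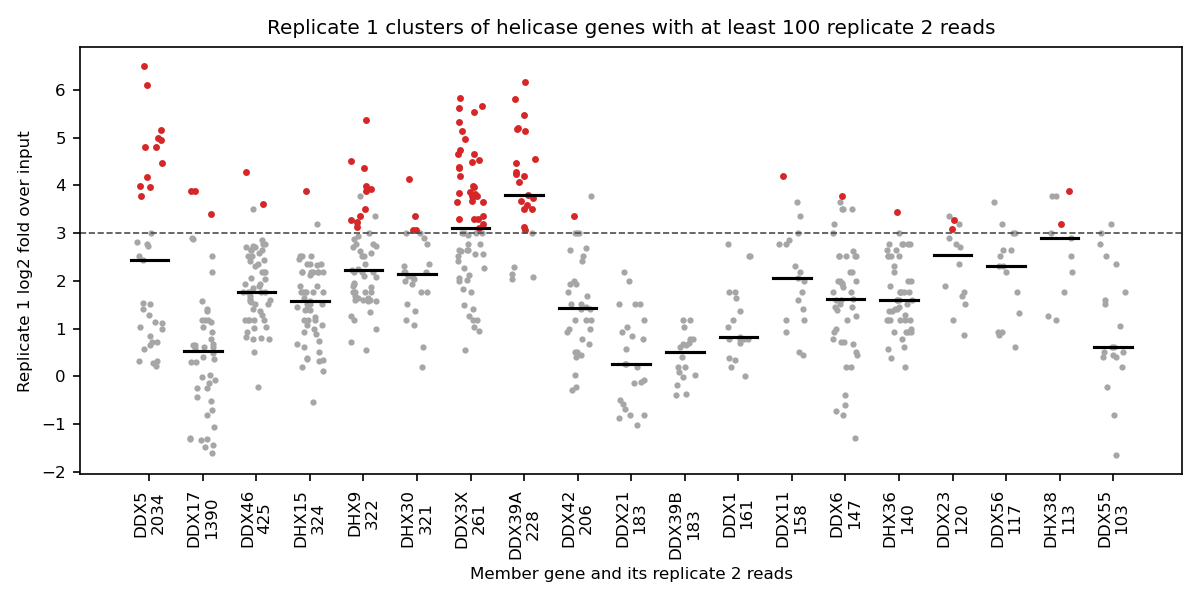
Log2 fold over the input of each replicate 1 cluster (vertical axis) for the 19 helicase genes with at least 100 replicate 2 reads, ordered by those reads, which are printed under each symbol. Red points are passing clusters, grey points the others, black bars the median of the gene, and the dashed line a log2 fold of 3. The medians of DDX39A (3.80) and DDX3X (3.12) lie above the line, and no cluster of DDX39B, DDX21 or DDX1 reaches it.

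The plot of folds by gene orders the genes by reads, and genes with similar reads had unlike folds, as with DDX39A and DDX39B. Across the 38 members with a replicate 1 cluster, the share of passing clusters and the replicate 2 reads had a Pearson correlation of 0.29 and a Spearman correlation of 0.56, given as a description since all points share the same libraries. DDX5 and DDX17, which had the most reads with 2034 and 1390, held 43.3% of the 7908 replicate 2 reads of the family. Per kb of span, DDX5 had 329 reads, DDX17 62.7, DDX39A 22.5 and DDX3X 16.4. The median number of reads per gene was 76 in the members and 38 in all protein-coding genes.

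**Figure D2:**
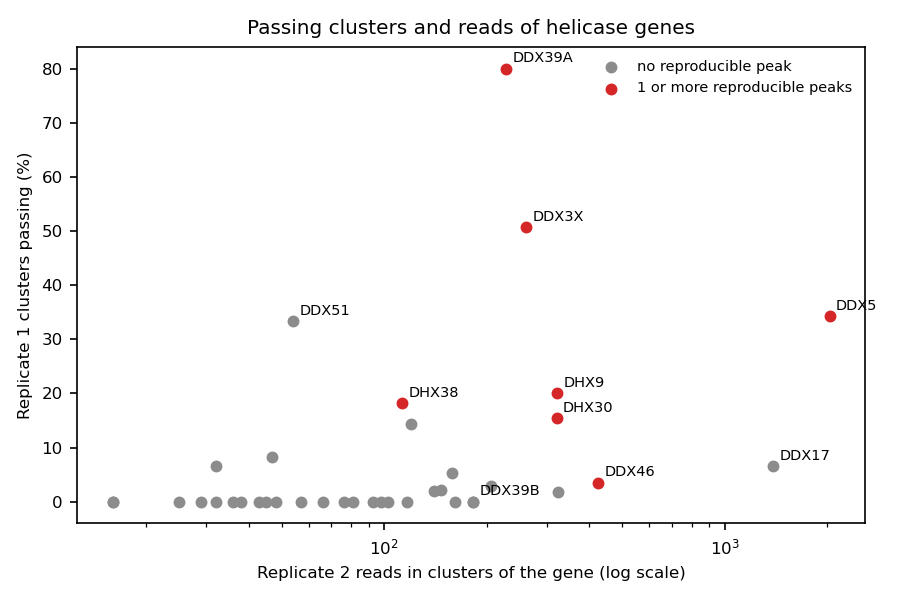
Percentage of replicate 1 clusters that passed (vertical axis) against the replicate 2 reads of the gene (horizontal axis, log scale) for the 38 helicase genes with a replicate 1 cluster. Red points have 1 or more reproducible peaks and grey points have none. DDX39A is highest at 80.0% with 228 reads, and DDX39B is at 0 with 183 reads.

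Among the helicases of mRNA export, DDX39A had the highest share of passing clusters of the family and DDX39B had none. DDX39A and DDX39B encode closely related proteins, also called URH49 and UAP56, that load export factors on spliced mRNA, and UAP56 also acts in spliceosome assembly. DDX5 and DDX17 (p68 and p72) are likewise paralogs. The coding sequence around the box after which the family is named is shown for both pairs, since the pairs are alike at this place. The unlike folds of the pairs are those over their whole spans, and no cluster was looked up at the printed bases. The lines give 30 coding bases, 5′ to 3′ on the transcript strand, from hg38 with the exons of GENCODE v44, and capitals mark the codons of the DEAD box, which in DDX39A and DDX39B has a cysteine in place of the alanine.
DDX39A: tttgtgctgGACGAGTGTGACaagatgctg
DDX39B: tttattttgGATGAATGTGATaagatgctt
DDX5: cttgtccttGATGAAGCAGATagaatgctt
DDX17: cttgtattgGACGAAGCTGACagaatgctt

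The DDX39A stretch lies at chr19:14410999-14411028 on the minus strand in exon 5 of 11, and that of DDX39B at chr6:31536510-31536539 on the minus strand in exon 5 of 11. They share 23 of 30 bases. The DDX5 stretch lies at chr17:64503236-64503265 on the minus strand in exon 7 of 13, and that of DDX17 at chr22:38494934-38494963 on the minus strand in exon 7 of 13, with 24 of 30 bases the same. Over the aligned coding sequence, identity was 80.0% for DDX39A and DDX39B (1281 bases) and 68.7% for DDX5 and DDX17 (1816 bases). None of the 10512 stretches of 75 bases in the DDX39A gene occurred in DDX39B, and none of the 9872 in DDX5 occurred in DDX17, so that reads of that length without mismatches could be assigned to 1 gene of each pair.

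In DDX39A, 20 of 25 replicate 1 clusters passed (80.0%, interval 59.3% to 93.2%). Their log2 fold ran from 3.06 to 6.17, and all lay between 5778 and 9335 bases from the 5′ end of the span, which was 10137 bases long. Of the 20, 11 overlapped a replicate 2 cluster. In DDX39B, none of 18 clusters passed (upper limit 18.5%), the median log2 fold was 0.51 and the highest 1.19. Clusters were nevertheless found in DDX39B by both replicates, and each of the 17 replicate 2 clusters of DDX39B overlapped a replicate 1 cluster. The number of reads also was alike, at 228 for DDX39A and 183 for DDX39B. DDX39B shares part of its span with the readthrough gene ATP6V1G2-DDX39B, and reads of both cannot be told apart.

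The 3 peaks of DDX39A are given in hg19, the build of the deposited positions. Nearest the 5′ end of the span was chr19:14524291-14524343, with a log2 fold of 3.51 for both replicates, 3.73 in replicate 1, and 19 reads in replicate 2. The next, chr19:14522119-14522178, had 5.49, 6.17 and 17 reads, and was the most enriched peak among the helicases. The last, chr19:14521127-14521212, had 4.59, 5.80 and 21 reads. In the authors' annotation of peaks the first of these and the next lie in proximal introns, and the last spans coding sequence and a 3′ splice site. DDX19A and DDX19B, which release mRNA from export factors at the nuclear pore, had 32 and 3 reads and no passing cluster. They are too alike to be separated at every position (coding identity 95.3%). They share 667 stretches of 75 bases, which are 2.5% of those of DDX19A and 1.5% of those of DDX19B. Of the replicate 2 clusters, 4 of 8 in DDX19A and the only 1 in DDX19B were also assigned to an overlapping gene, ENSG00000260537. The counts of DDX19A and DDX19B are therefore uncertain.

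**Figure D3:**
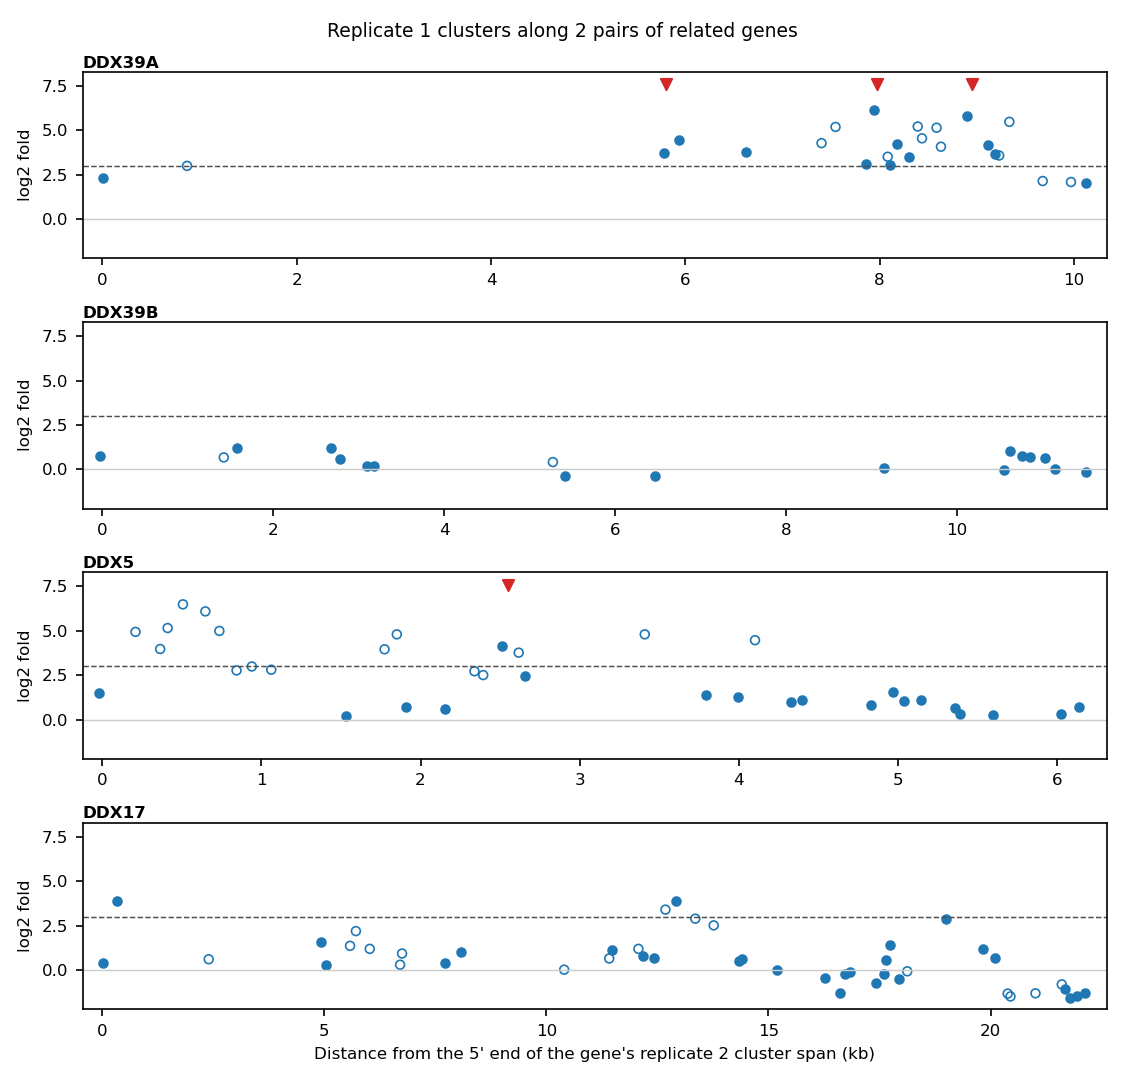
Log2 fold over the input of replicate 1 clusters (vertical axes) against the distance of the cluster from the 5′ end of the replicate 2 cluster span (horizontal axes, kb) in DDX39A, DDX39B, DDX5 and DDX17. Filled points overlap a replicate 2 cluster, open points do not, red triangles mark reproducible peaks and the dashed line is a log2 fold of 3. DDX39A passes between 5778 and 9335 bases, DDX39B nowhere, and the highest folds of DDX5, up to 6.49, are open points in its first 1500 bases.

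Of the helicases in transcription and RNA processing, DDX5 and DHX9 carried peaks and DDX17 and DDX1 did not. DDX5, a transcription coregulator that also acts in splicing and microRNA processing, had 12 of 35 replicate 1 clusters passing, with a median log2 fold of 2.44 and a highest of 6.49. Only 1 of the 12 overlapped a replicate 2 cluster. The 6 passing clusters within 1500 bases of the 5′ end of the span had log2 folds of 3.98 to 6.49, and none of the 6 overlapped replicate 2, which had 1 cluster of 42 reads in that stretch. Of the 6 passing clusters further on, with log2 folds of 3.77 to 4.80, 1 overlapped replicate 2.

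The peak of DDX5, chr17:62499797-62499802, is 6 bases long and lies in a proximal intron by the authors' annotation. Its log2 fold was 4.29 for both replicates and 4.17 in replicate 1. The replicate 2 cluster there had 21 reads, the fewest of any DDX5 cluster, whereas the cluster with the most, 144 reads, overlapped 2 replicate 1 clusters, of log2 fold 1.13 and 1.001. The most reads of DDX5 in replicate 2 and its highest folds in replicate 1 thus lay at different places of the transcript. The values come from different replicates and are unlike measures, since the reads are not set against the input and the folds are. A difference between the replicates and the difference in measure cannot be told apart here.

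DDX17, a partner of DDX5 with similar functions, had 3 of 46 clusters passing, a median log2 fold of 0.54 and 17 clusters below 0. Its passing clusters had log2 folds of 3.89, 3.40 and 3.89, at 328, 12681 and 12911 bases from the 5′ end of the span. The first and the last of these overlapped replicate 2 clusters, of 36 and 10 reads. DDX17 nevertheless had no reproducible peak. Its cluster with the most replicate 2 reads, 111, overlapped 2 replicate 1 clusters, of log2 fold 0.59 and −0.24.

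DHX9, an RNA and DNA helicase also called RNA helicase A that resolves structured RNA, had 11 of 55 clusters passing, 6 of them with a replicate 2 cluster. Its median log2 fold was 2.23 and its highest 5.38. Both peaks lay close together, with a gap of 366 bases. The first, chr1:182825117-182825190, had a log2 fold of 3.52 for both replicates, 4.36 in replicate 1, and 26 replicate 2 reads, the most of any DHX9 cluster. The other, chr1:182825557-182825612, had 4.38, 5.38 and 14 reads. By the authors' annotation both are intronic, and the downstream one reaches a 3′ splice site. DDX1, which acts in transfer RNA ligation, had 19 clusters with a highest log2 fold of 2.77, and DDX20, a component of the SMN complex that builds small nuclear ribonucleoproteins, had 16 reads and 3 clusters at most at 2.51.

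DDX3X carried the most passing clusters. It encodes an X-linked helicase that promotes translation of mRNA with structured leaders. Of its 63 replicate 1 clusters, 32 passed (50.8%), the median log2 fold was 3.12 and the highest 5.83. Replicate 2 clusters overlapped 10 of the 32. Within 1500 bases of the 5′ end of the span lay 11 passing clusters with log2 folds of 3.85 to 5.83, of which 2 overlapped replicate 2, with 6 and 5 reads. The reproducible peak lay elsewhere, at chrX:41203273-41203318, which is 9742 bases from that end. Its log2 fold was 3.53 for both replicates and 3.81 in replicate 1, with 20 replicate 2 reads. It spans coding sequence and a 3′ splice site in the authors' annotation. The replicate 2 cluster of DDX3X with the most reads, 21, overlapped a passing cluster of log2 fold 3.12.

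In both DDX5 and DDX3X, the passing clusters near the 5′ end of the span mostly lacked a replicate 2 cluster. Within 1500 bases of the 5′ end of the span lay 21 of 97 passing clusters of the members (21.6%), beside 26.7% over all genes. Of the clusters that did not pass, 7.48% lay there in the members, beside 10.5% over all genes. Of the passing clusters without a replicate 2 cluster, 17 of 54 (31.5%) lay there, and of those with one, 4 of 43 (9.30%). Over all genes these shares were 26.0% and 27.8%. DDX5 and DDX3X supplied 15 of the 17 clusters. The span begins at a replicate 2 cluster and not at an annotated start site, so that these distances are not distances from the start of transcription.

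DHX30 carried 3 peaks in a few passing clusters. It is a helicase that assists assembly of mitochondrial ribosomes. All 4 of its passing clusters, of 26, overlapped replicate 2 clusters, of 14 to 30 reads. A pair of its peaks lay 12 bases apart, at chr3:47883293-47883395 and chr3:47883408-47883480. The first had a log2 fold of 4.38 for both replicates, 4.14 in replicate 1, and 30 reads, the most of any cluster of the gene, and its −log10 p of 8.91 was the highest among the helicases. The second had 3.20, 3.36 and 21 reads. The third, chr3:47889592-47889653, lay 6111 bases further on, with 3.15, 3.06 and 28 reads. By the authors' annotation they lie at a 5′ splice site with its proximal intron, in a proximal intron and at a 3′ splice site. DDX28, the other helicase of mitochondrial ribosome assembly, had 3 reads.

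**Figure D4:**
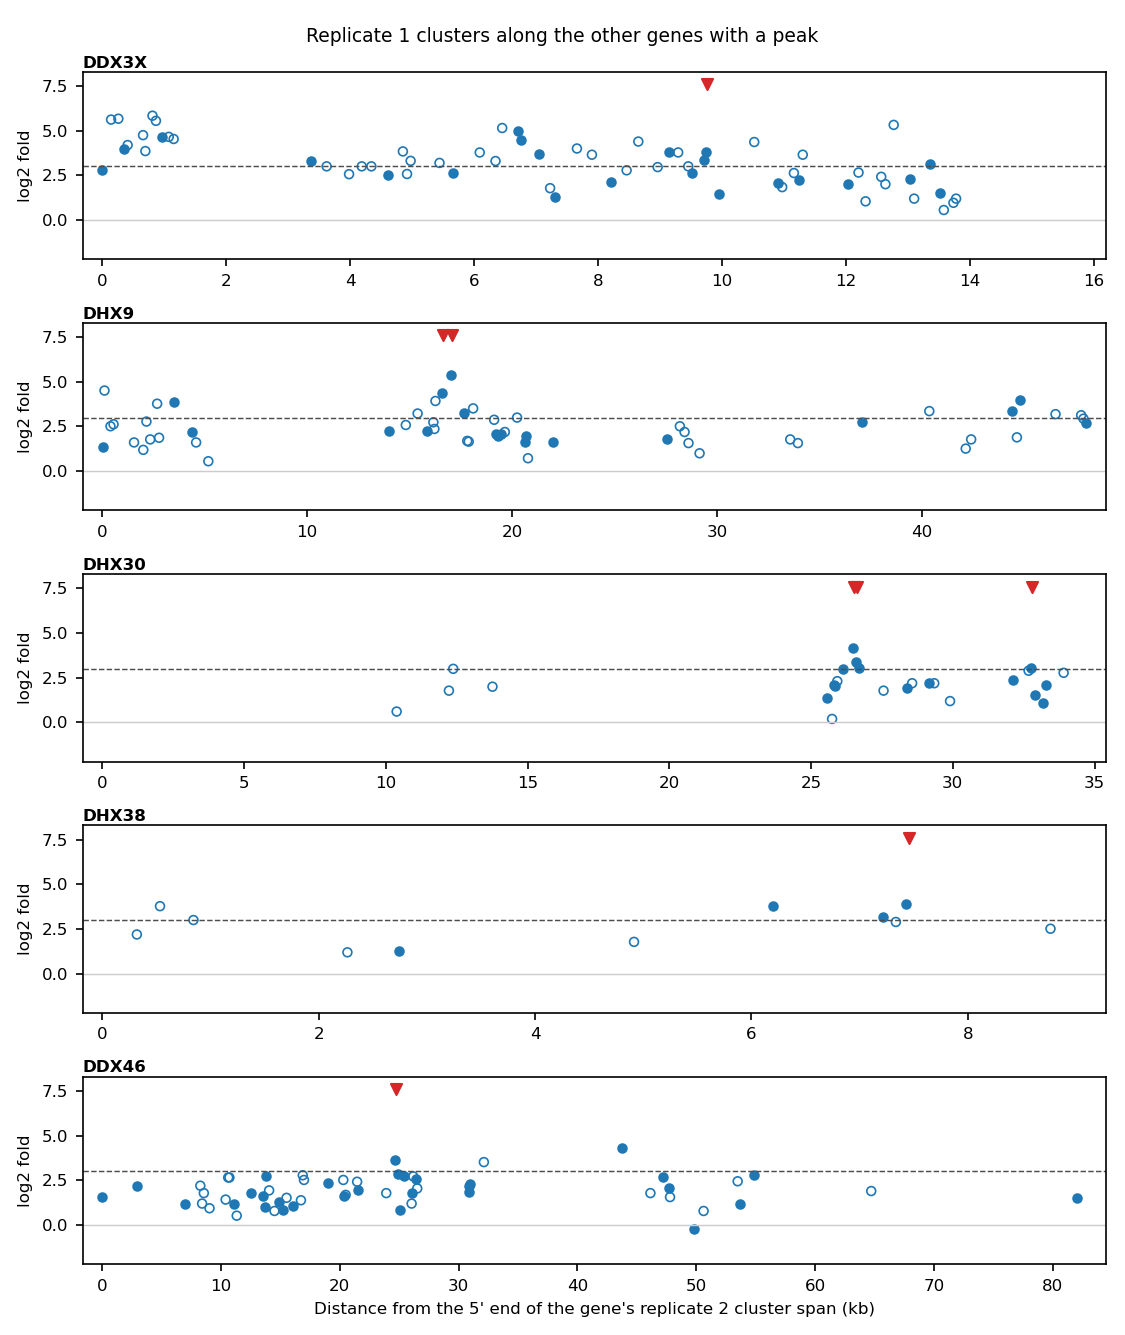
Log2 fold over the input of replicate 1 clusters (vertical axes) against the distance from the 5′ end of the replicate 2 cluster span (horizontal axes, kb) in DDX3X, DHX9, DHX30, DHX38 and DDX46. Filled points overlap a replicate 2 cluster, open points do not, red triangles mark reproducible peaks and the dashed line is a log2 fold of 3. In DHX30 all 4 passing clusters are filled, whereas 22 of 32 in DDX3X are open.

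Among the 9 helicases of the spliceosome, 2 carried a peak and 5 a passing cluster, with 8 of 200 clusters passing (4.00%, interval 1.74% to 7.73%). Over all protein-coding genes, 4.52% carried a peak, 18.5% a passing cluster, and 5.77% of clusters passed, which lies within that interval. DHX38, the human Prp16 that acts between the catalytic steps, had 2 of 11 clusters passing, both with a replicate 2 cluster. Its peak, chr16:72138299-72138364, lay at a 3′ splice site in the authors' annotation, with a log2 fold of 3.69 for both replicates, 3.89 in replicate 1, and 15 reads, the most of any DHX38 cluster. DDX46, the human Prp5 that acts when the U2 particle joins the branch site, had 2 of 57 clusters passing. Its peak, chr5:134124378-134124445, had 3.30, 3.60 and 16 reads, and by the authors' annotation covers a 5′ splice site with its proximal intron. A higher replicate 1 log2 fold of 4.28 lay elsewhere in DDX46, at a replicate 2 cluster of 8 reads, and was not a reproducible peak.

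DHX15, the human Prp43 that takes the spliceosome apart and a partner of G-patch proteins, a class that includes RBM17, had the fourth highest number of reads, 324, and 55 replicate 1 clusters. Only 1 of these passed, with a log2 fold of 3.89 over 10 replicate 2 reads. DDX23, of the U5 particle, had 2 passing clusters of 3.10 and 3.28, both with replicate 2 clusters, of 6 and 16 reads. DDX42, a helicase of the U2 particle, had 1 of 34 at 3.36 with no replicate 2 cluster. DDX41, DHX8, DHX16 and DHX35 had 25 to 76 reads and no passing cluster.

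The 15 helicases of ribosome biogenesis had no peak, and their median was 57 replicate 2 reads per gene. Of all protein-coding genes with a replicate 2 cluster, 4.52% carried a peak. At that share a group of 15 genes can hold none, so that the lack of peaks cannot be called particular to the role. Of their 147 replicate 1 clusters 3 passed (2.04%, interval 0.423% to 5.85%), beside 5.77% of the clusters of all protein-coding genes, which lies within the interval. The passing clusters were 2 in DDX51, at 3.71 and 4.00, and 1 in DDX47, at 4.28, which were named after their values were seen. All 8 replicate 2 clusters of DDX47 were also assigned to an overlapping gene, ENSG00000255661, so that its reads may belong to either. DDX21, a nucleolar helicase, had the most reads of the group with 183, and its 24 clusters had a median log2 fold of 0.26 and a highest of 2.19. Its cluster with the most reads, 30, overlapped a replicate 1 cluster of log2 fold 0.25.

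**Figure D5:**
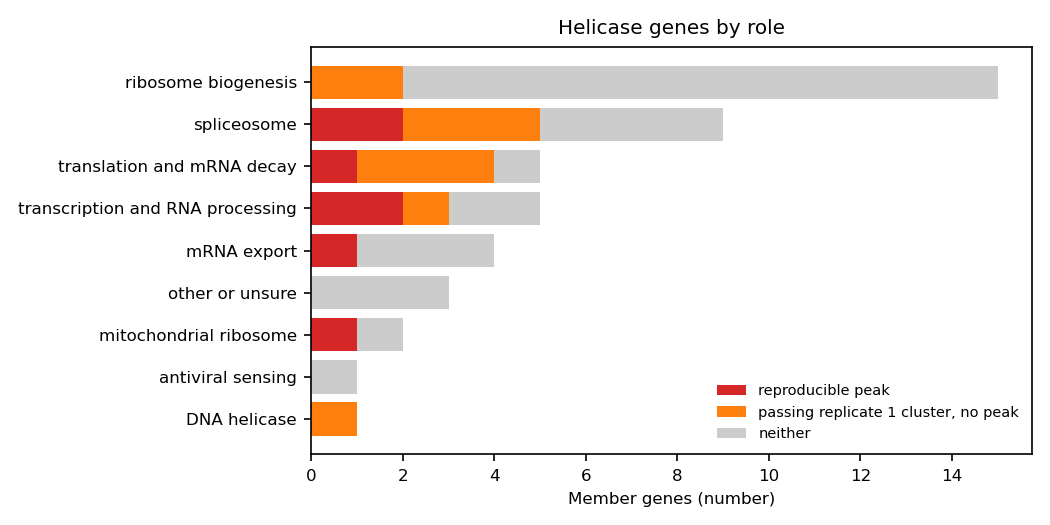
Number of helicase genes (horizontal axis) in each textbook role, divided into genes with a reproducible peak (red), genes with a passing replicate 1 cluster but no peak (orange) and genes with neither (grey). The 7 genes with a peak are spread over 5 roles, and none of the 15 genes of ribosome biogenesis has one. Of all protein-coding genes with a replicate 2 cluster, 4.52% have a peak.

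In translation and mRNA decay, the other helicases each had at most 1 passing cluster. DDX6, which represses translation and promotes decapping, had 1 of 47, at 3.77 with no replicate 2 cluster, and its cluster with the most reads had a log2 fold of −0.40. DHX36, which unwinds G-quadruplexes, had 1 of 50, at 3.44 and 80 bases from the 5′ end of the span, over 6 replicate 2 reads. DHX29, which helps initiation on structured leaders, had 1 of 12, at 3.89. DHX34, a factor of nonsense-mediated decay, had 38 reads and a highest log2 fold of 2.00. DDX11, a DNA helicase of chromosome cohesion and the single member with that role, had 1 of 19 at 4.19 with no replicate 2 cluster. It shares 6919 stretches of 75 bases, or 22.4% of its own, with the pseudogene DDX12P, so that its counts are uncertain.

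The members with the fewest reads were DDX19B, DDX28 and the antiviral gene DDX60L, with 3 each. In all, 6 members had a single replicate 2 cluster, and 7 had no replicate 1 cluster within the span. Since a gene with few replicate 2 clusters has a short span, few replicate 1 clusters could be added to it. The number of clusters per gene in both replicates had a Pearson correlation of 0.86 and a Spearman correlation of 0.89 over the 45 members, which shares this construction.

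The positions of clusters in both replicates were also compared, which was not tested across genes. Of 689 replicate 2 clusters in members, 301 (43.7%, interval 39.9% to 47.5%) overlapped a replicate 1 cluster, beside 31.8% of all. Of the 97 passing replicate 1 clusters, 43 (44.3%, interval 34.2% to 54.8%) overlapped replicate 2, beside 40.5% of all, and 12 (12.4%) lay in a reproducible peak, beside 12% of all. In 5 of the 19 members with at least 100 reads, DHX30, DHX9, DDX3X, DDX23 and DHX38, the replicate 2 cluster with the most reads overlapped a passing replicate 1 cluster. This was not counted over all genes with at least 100 reads, so that it cannot be called particular to the helicases.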

How the data were processed

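RBM17 eCLIP in K562 cells was read from the lists the authors deposited. Each replicate 1 cluster came with 2 values deposited by the authors, a log2 fold against the input and its −log10 p, which stops at 400. The deposited replicate 2 list gives the caller's own p-value, of at most 0.05 and without reference to the input, and an Ensembl identifier with a read count in each cluster name. The list of 866 reproducible peaks deposited by the authors has 2 values per peak and no header. They were taken as −log10 p and log2 fold from the paper's cutoffs and the value ranges. The name of the list was the ground for taking them as values of both replicates together. These values are output of the authors' comparison with the input and were used to describe and filter peaks. The methods name an eCLIP pipeline and paired-end reads, and the submitters' processing notes name cutadapt and STAR with no version. The build is not given in the sources used here. It was taken as hg19 from the largest position on chromosome 1, 249211903. The input library itself was not analysed here, and the depth of the libraries is unknown beyond the 1336569 reads in replicate 2 clusters. The replicates were numbered after their description labels, whereas the titles call them 2 and 3, and the methods speak of both duplicates and triplicates.

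Gene types came from GENCODE v44, which held 10423 of the 10872 identifiers in replicate 2. A gene's span ran from its first to its last replicate 2 cluster. Replicate 1 clusters and peaks counted for a gene with 1 bp or more of overlap on the same strand. Clusters and peaks were overlapped with numpy 2.4.6 and pandas 2.3.3 under Python 3.11.15, and the overlap code was tested on simulated intervals. The exact 95% intervals were computed with scipy 1.17.1. Figures used matplotlib 3.10.9 and coding alignments Biopython 1.88 on hg38. No test was run, since fold values exist for 1 replicate and for both together. Intervals are exact Clopper-Pearson 95% intervals for counting error. Those for shares of clusters treat the clusters of a gene as independent, which they are not, and are too narrow for a comparison of genes. Named were all members with a peak, the 8 with the most reads, the 8 with the most passing clusters, those with a passing cluster, no peak and at least 100 reads, and the 3 with the fewest reads. Other genes were named after their values were seen. The members, roles and lists were chosen with earlier results of these data known. Alternatives changed the fold, p, overlap and assignment of clusters.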

Additional observations from a re-analysis of the deposited data

How the results depend on the processing

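With a log2 fold of at least 4, peaks were left in 4 genes (5 peaks) from 3 role groups instead of 5. The share of passing clusters was then 5.52%, beside 2.38% of the clusters of all protein-coding genes. With a −log10 p of at least 5, peaks were left in 4 genes (5 peaks). Counting passing replicate 1 clusters in place of peaks gave the 17 genes named above as having one. The members and their spans were still set by replicate 2, so that replicate 2 was not left out entirely. Without the 4 genes with the most passing clusters, an alternative chosen after the data were seen, the passing share was 3.66%, a fall that choosing the genes by that count fixes. The median log2 fold was 1.60 over clusters that overlapped replicate 2 and 1.62 as the median of gene medians. With replicate 2 clusters of caller p at most 1e-10, the reads were 4258, the share overlapping replicate 1 was 75.6% and, as an addition made after the data were seen, the Spearman correlation of cluster numbers was 0.66. With 50% overlap required, the share of the members' replicate 2 clusters overlapping replicate 1 was 35.7%. The shares of 75.6% and 35.7% were not counted over all genes at the same settings. Neither can thus be called particular to the helicases. Assigning peaks by replicate 2 cluster, or by spans of exactly 1 gene, kept the 7 genes with a peak. No paired analysis was possible because replicate 2 has no fold over the input and the input is a single library. For the same reason no value without replicate 1 could be given. The main limits are the few reads per cluster, the single fold for both replicates and the lack of transcript levels.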

Other observations

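Helicases of the same superfamilies under other symbols were measured in 12 of 14 listed genes. Of these 4 carried reproducible peaks, namely EIF4A2 with 7, MOV10 with 2, EIF4A1 with 1 and UPF1 with 1. EIF4A1 and EIF4A2 unwind mRNA leaders in translation initiation, MOV10 acts in RNA silencing and UPF1 is the central helicase of nonsense-mediated decay. In the group, 47 of 324 replicate 1 clusters passed, and 18 of the 47 were in EIF4A2. Over all protein-coding genes with a replicate 2 cluster, 4.52% carried a peak (17.1% of those with at least 100 reads) and 5.77% of replicate 1 clusters passed.

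The pseudogene DDX12P, a relative of DDX11 that the selection of protein-coding genes leaves out, had 119 replicate 2 reads, 4 of 24 replicate 1 clusters passing and 2 reproducible peaks, with log2 folds of 4.12 and 4.52. DDX11 itself had 158 reads and no peak. Since 6919 stretches of 75 bases occur in both, reads from DDX11 and DDX12P could not be told apart at these places. In 31 replicate 1 clusters of the members the log2 fold was at least 3, up to 3.77, and the −log10 p under 3.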
